A study of Mus musculus with 10 samples.

Results

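The replication-dependent histone genes were followed in cultured mouse melanoma cells before and after serial passage through the liver. They were chosen by symbol: every gene whose GENCODE M21 symbol starts with Hist1h, Hist2h, Hist3h or Hist4h was taken, which gave 70 of the 55385 gene identifiers in the files, 67 of them protein coding and 3 pseudogenes. The family itself was proposed with the results of this comparison in view, so the changes of its members are given as a description: calls by the fit over all genes are counted, but no p is given for a member's change in level and nothing is inferred for the family from them. RNA-seq covered 10 libraries, 5 of each group. WT31 is a parental melanoma line from a Tyr::NrasQ61K/°; INK4a-/- mouse, in which a mutant NRAS transgene is driven by the tyrosinase promoter of pigment cells, and both groups carry these alleles. WT31_P5IV is the subline recovered from WT31 after 5 hepatic passages that followed intravenous injection. Both were grown untreated in the same medium, and RNA was taken from sub-confluent cultures, not from metastases. One line was set against one subline, so a difference between them cannot be told apart from a difference that any pair of separately kept cultures would show. The labels call the libraries biological replicates but do not say how far apart the cultures were kept. Fewer cells in S phase and less histone RNA per cell cannot be told apart in such bulk samples.

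Replication-dependent histone genes encode the linker histone H1 and the core histones H2A, H2B, H3 and H4, which package newly made DNA. Their transcription and the stability of their mRNAs peak in S phase. These mRNAs have no introns and, unlike other mRNAs, no poly(A) tail: they are cut a few bases after a conserved stem-loop, which is bound by the stem-loop binding protein SLBP and is guided into cleavage by the U7 small nuclear ribonucleoprotein. Several of the genes can also give a longer, polyadenylated transcript. The step by which messenger RNA was selected for the libraries is not given in the sources used here beyond a standard protocol of the sequencing provider, and a selection by poly(A) would take up both kinds of transcript unequally.

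The stem-loop is the feature that sets these genes apart, so it was read from the GENCODE M21 transcripts on GRCm38. A 16-base stem-loop was found in at least 1 annotated transcript of 44 members, in 6 spellings, and not in 26 members. The commonest spelling was held by 26 members of types H1, H2A, H2B and H3. The H4 genes had spellings of their own, of which one was held by 7 members. The sites below were chosen to show the spellings and the genes that the results turn on, with the stem-loop in capitals and up to 5 flanking bases in lower case.
Hist1h2ap, chr13:21833026-21833049, minus strand: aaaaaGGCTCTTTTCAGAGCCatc
Hist1h1c, chr13:23739507-23739532, plus strand: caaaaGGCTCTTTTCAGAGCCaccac
Hist3h2a, chr11:58955167-58955192, plus strand: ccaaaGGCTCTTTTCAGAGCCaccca
Hist1h2bm, chr13:21722501-21722526, plus strand: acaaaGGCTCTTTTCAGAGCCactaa
Hist1h3c, chr13:23745042-23745067, minus strand: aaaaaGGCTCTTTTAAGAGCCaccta
Hist1h4i, chr13:22040961-22040986, minus strand: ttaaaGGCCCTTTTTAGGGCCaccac
Hist1h4b, chr13:23757361-23757386, plus strand: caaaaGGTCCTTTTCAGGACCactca
Hist1h4d, chr13:23581945-23581970, plus strand: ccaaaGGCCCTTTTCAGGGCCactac
Hist2h2ac, chr3:96220413-96220438, minus strand: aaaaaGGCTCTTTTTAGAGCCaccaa
In the annotation the Hist1h2ap transcript ended 3 bases after the stem-loop and that of Hist1h2bm 46 bases after it. The Hist1h1c transcript ran on for 840 bases and that of Hist3h2a for 1643 bases. By their longest models, 21 members ended within 100 bases of the stem-loop, and 23 ran more than 100 bases past it or had a second model more than 100 bases longer. A further 13 members were annotated with no base after the stop codon, so that the stem-loop lay outside the model, 10 had another 3′ end without the stem-loop, and 3 were pseudogenes. This grouping was drawn up after the values of the genes had been seen.

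The promoters of 62 members could be matched to RefSeq promoter windows on GRCm38.p6. The 250 bases before the start were searched on both strands for CCAAT, the box bound by the factor NF-Y, for TATAAA, for ATTTGCAT, the octamer bound by Oct1, and for AAACACA, an element of H1 promoters. CCAAT was present in 51 of the 62 windows (82.3%) against 34.5% of all 27025 windows, and in every window of the H1, H2A and H2B genes, but in 3 of the 12 windows of H4 genes. TATAAA was present in 46.8% of the member windows against 12.97% of all, and the octamer in 20.97% against 1.61%. The octamer was found only in windows of H2A genes (7 of 18) and H2B genes (6 of 16), many of which lie head to head and share part of a window. AAACACA was present in 5 of the 6 H1 windows against 6.22% of all windows. A match is a description of the letters in the window. The 150 bases before the RefSeq start are shown for 3 genes whose stretch does not overlap the GENCODE gene: the highest H1 and H4 genes and an H2B gene with the octamer. Matched motifs are in capitals.
Hist1h1c, chr13:23738657-23738806, plus strand: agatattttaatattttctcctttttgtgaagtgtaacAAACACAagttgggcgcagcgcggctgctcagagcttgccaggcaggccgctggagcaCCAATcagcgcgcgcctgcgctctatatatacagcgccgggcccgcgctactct
Hist1h4i, chr13:22041363-22041512, minus strand: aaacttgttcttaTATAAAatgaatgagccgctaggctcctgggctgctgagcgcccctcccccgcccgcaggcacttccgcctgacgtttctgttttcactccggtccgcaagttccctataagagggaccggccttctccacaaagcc
Hist1h2bk, chr13:22035671-22035820, plus strand: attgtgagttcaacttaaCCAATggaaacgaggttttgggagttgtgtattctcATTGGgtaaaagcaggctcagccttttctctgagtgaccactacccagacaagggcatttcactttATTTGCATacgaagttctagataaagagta
The Hist1h1c stretch held AAACACA and CCAAT, that of Hist1h4i TATAAA far from the start, and that of Hist1h2bk CCAAT on both strands and the octamer close to the start.

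Histone reads were few. The members took 6370 to 7481 of the 24255389 to 25750639 estimated counts of a library, or 0.0261% to 0.0308%. The estimated counts were rounded and scaled to library size with TMM factors (CPM), and levels of different genes are compared as TPM, which also corrects for transcript length. A count of 3, taken as the limit of detection, was 0.114 to 0.129 CPM. These limits cover counting error only. In all, 41 members had enough reads for the fit and 29 did not. The filter asked for about 10 counts in 5 libraries. Of the 41, 22 met it in all WT31 libraries and 16 in all WT31_P5IV libraries but not in all WT31 libraries. A gene of the latter kind had to be higher in WT31_P5IV to be seen, and counts over the tested members carry that limit.

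In WT31_P5IV many histone genes of the Hist1 cluster were higher, some of which had enough reads only there. Of the 10 members with the highest TPM, 6 were called higher, 2 lower and 2 neither. The H3 and H4 genes were higher as groups, and the linker histone gene Hist1h1c and the H2B gene Hist1h2bc were lower. The dominant H2A gene Hist1h2ap was level in CPM and lower in TPM. On the TPM scale the median log2 fold change of all genes moved by -0.17 against CPM. By the quasi-likelihood fit of edgeR over all genes, with 0.05 as the limit of the adjusted p, 27 of the 41 members were called higher and 5 lower, beside 34.6% of all 13620 tested genes called higher and 33.9% called lower. A log2 fold change of at least 1 was reached by 21 of the 27, beside 5.49% of all genes, and one of -1 or below by 2 of the 5, beside 3.69%. In 20 members the CPM of every WT31_P5IV library lay above that of every WT31 library (26.6% of all genes), and in 3 it lay below (27.5%). The median log2 fold change of the 41 was 1.01, with a range of -1.24 to 2.60, beside a median of 0.01 over all tested genes. Where a member had to have 10 counts or more in each of the 10 libraries, 21 were left, of which 11 were called higher and 4 lower, and their median was 0.26. Among the 22 members that met the filter in all WT31 libraries, 11 were called higher and 5 lower. When libraries were left out in turn, the calls of Hist1h2ab, Hist1h1e, Hist1h2ad, Hist1h2ao and Hist2h3c2 were lost at least once, and 24 to 27 members were called higher and 4 to 5 lower.

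**Figure D1:**
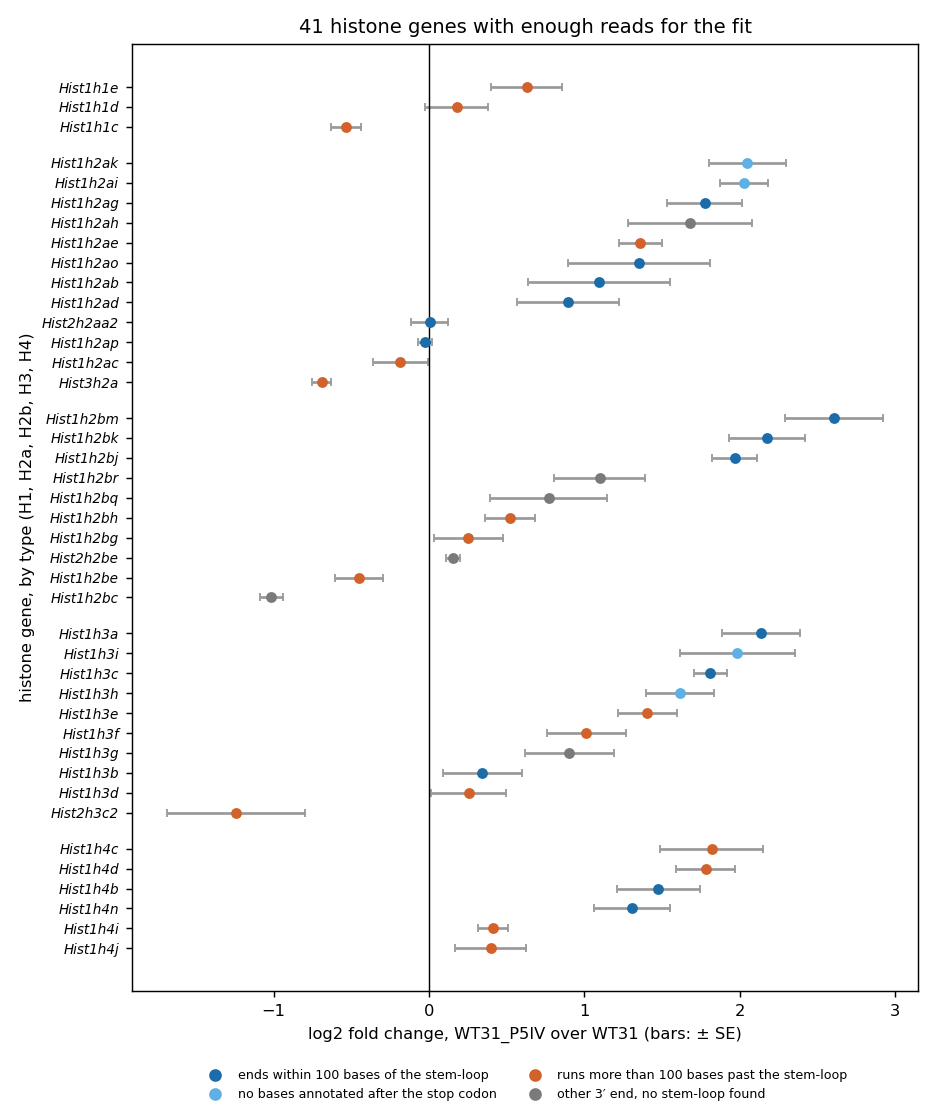
Log2 fold change of WT31_P5IV over WT31 (x axis) for the 41 tested histone genes (y axis, grouped by histone type); bars are ± 1 SE and colours give the annotated 3′ end. Values run from -1.24 (Hist2h3c2) to 2.60 (Hist1h2bm), and the genes below 0 include Hist1h1c, Hist3h2a and Hist1h2bc.

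Genes for linker histone H1, which binds DNA between nucleosomes, were led by Hist1h1c (chr13:23738808-23740367). Hist1h1c held 487, 422, 462, 518 and 530 counts in the 5 WT31 libraries and 373, 302, 270, 334 and 282 in the WT31_P5IV libraries. All WT31_P5IV libraries lay below all WT31 libraries, and the log2 fold change was -0.54 (SE 0.10). Its level was 20.6 ± 1.603 TPM in WT31 and 12.6 ± 1.76 in WT31_P5IV (SD, n = 5 each). Of the other linker histone genes, Hist1h1e had a log2 fold change of 0.63 (SE 0.23) with overlapping groups and Hist1h1d one of 0.18 (SE 0.20). Hist1h1b, Hist1h1a and the testis gene Hist1h1t had no more than 13 counts in any library. Hist1h1b reached 5 counts at most in WT31 and held 3 to 13 in WT31_P5IV. The 6 genes together gave 21.7 ± 1.35 TPM in WT31 and 15.03 ± 1.82 in WT31_P5IV without overlap, while their summed CPM overlapped between the groups. On the TPM scale the median log2 fold change of all genes moved by -0.17.

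The H2A genes were dominated by Hist1h2ap (chr13:21833026-21833507), which was the highest of all 70 members. Its counts were 3218, 3425, 3584, 3631 and 3358 in WT31 and 3192, 2939, 3408, 3328 and 2975 in WT31_P5IV. The groups overlapped, and the log2 fold change was -0.03 (SE 0.05). On the TPM scale it stood at 698 ± 44.9 in WT31 and 598 ± 29.3 in WT31_P5IV, lower in every library. The median log2 fold change of all genes also moved by -0.17 on that scale. Hist1h2ap made up 69.1% to 77.8% of the TPM of all members in WT31 and 57.5% to 62.5% in WT31_P5IV. Its neighbour Hist1h2ao shares 93.8% of its 31-base words, the unit that kallisto matches, with other genes' transcripts, chiefly Hist1h2ap, so that the split of reads between these genes is uncertain. Hist1h2ao counts jumped from 0 to 262 between the WT31 libraries. Summed, the pair held 3480, 3536, 3584, 3825 and 3483 counts in WT31 and 3437, 3172, 3659, 3865 and 3362 in WT31_P5IV, again with overlap. The sum does not remove all uncertainty, because 43.6% of the Hist1h2ap words and 43.8% of the Hist1h2ao words are also shared with genes outside the family.

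All 20 H2A genes summed to 169 ± 7.27 CPM in WT31 and 181 ± 12.1 in WT31_P5IV. On the TPM scale they summed to 786 ± 29.3 and 775 ± 56.1, and the groups overlapped on both scales. The 18 H2A genes other than Hist1h2ap and Hist1h2ao summed to 26.2 to 32.2 CPM in WT31 and 33.2 to 38.1 in WT31_P5IV. Hist1h2ai (chr13:21716422-21716814) held 45, 34, 33, 36 and 30 counts in WT31 and 114, 109, 154, 176 and 126 in WT31_P5IV. Every WT31_P5IV library was above every WT31 library, with a log2 fold change of 2.03 (SE 0.16). Hist1h2ak counts were 8, 3, 7, 9 and 11 in WT31 and 30, 28, 27, 35 and 27 in WT31_P5IV, a log2 fold change of 2.05 (SE 0.25) without overlap. Hist1h2ag, Hist1h2ah, Hist1h2ae and Hist1h2ad were likewise higher in all WT31_P5IV libraries, with log2 fold changes of 1.77, 1.68, 1.36 and 0.89. Hist1h2ai, Hist1h2ah, Hist1h2ag and Hist1h2ak share 92.0%, 92.5%, 79.8% and 74.4% of their words with other genes. For Hist1h2ai 53.4% of the words are shared with genes outside the family. The split of reads between these genes is therefore uncertain. Hist1h2ac was level at -0.18 (SE 0.18). Hist3h2a, the single H2A gene of the Hist3 cluster (chr11:58954685-58956830), went the other way. It held 500, 466, 448, 492 and 479 counts in WT31 and 292, 264, 288, 240 and 299 in WT31_P5IV, a log2 fold change of -0.69 (SE 0.06). No library of one group came near those of the other. The gene shares 32.1% of its words with Trim17, a ubiquitin ligase gene that starts at the same place on the same strand.

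Among the H2B genes the highest on the TPM scale was Hist1h2bc (chr13:23684199-23692908). Its counts were 889, 806, 794, 887 and 988 in WT31 and 382, 402, 413, 448 and 378 in WT31_P5IV. The groups were far apart, with a log2 fold change of -1.01 (SE 0.07) and levels of 52.9 ± 3.82 TPM in WT31 and 23.1 ± 1.49 in WT31_P5IV. The annotated model of Hist1h2bc holds no stem-loop. Hist1h2be, whose transcript ran 1861 bases past the stem-loop, was lower at -0.45 (SE 0.15), its counts lying between 34 and 50 in WT31 and between 26 and 36 in WT31_P5IV. Hist1h2bm (chr13:21722044-21722567) had the largest log2 fold change of the 41 tested members. It held 6, 3, 1, 2 and 4 counts in WT31 and 19, 15, 17, 19 and 21 in WT31_P5IV, a log2 fold change of 2.60 (SE 0.32). In WT31 replicates 2, 3 and 4 it lay at or below the limit of 3 counts, so the size of this change is uncertain. Hist1h2bk held 7, 7, 18, 8 and 11 counts in WT31 and 45, 50, 37, 48 and 35 in WT31_P5IV, a log2 fold change of 2.17 (SE 0.25). Both were above every WT31 library in all WT31_P5IV libraries. So was Hist1h2bj, which went from 26 to 46 counts in WT31 to 110 to 146 in WT31_P5IV. The direction of the summed H2B level depended on the scale: it was 63.8 ± 4.05 CPM in WT31 against 57.5 ± 2.83 in WT31_P5IV, but 88.7 ± 5.36 TPM against 95.7 ± 5.29, with overlap on both.

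The H3 genes were higher as a group. Summed over the 12 genes, H3 stood at 6.39, 5.94, 6.67, 5.86 and 8.04 CPM in WT31 and 15.98, 14.1, 15.3, 16.2 and 13.7 in WT31_P5IV, a ratio of 2.29 without overlap, and the ratio on the TPM scale was 2.43. The highest of them, Hist1h3c (chr13:23744973-23745602), held 45, 36, 33, 35 and 37 counts in WT31 and 133, 123, 118, 116 and 120 in WT31_P5IV. The WT31_P5IV libraries varied little, and the log2 fold change was 1.81 (SE 0.11). Hist1h3a held 7, 7, 6, 3 and 10 counts in WT31 and 25, 22, 30, 34 and 25 in WT31_P5IV (log2 fold change 2.14, SE 0.25). Hist1h3i held 0, 14, 11, 13 and 5 against 35, 29, 31, 34 and 30 (1.98, SE 0.37). Neither gene overlapped between the groups, but Hist1h3i and Hist1h3h share 85.3% of their words, so that the split between them is uncertain. Their sum was 12 to 37 counts in WT31 and 66 to 90 in WT31_P5IV, and 31.5% and 30.97% of the words of Hist1h3h and Hist1h3i are also shared with genes outside the family. Hist1h3e and Hist1h3f were also higher, at 1.40 and 1.01, Hist1h3g was higher at 0.90 with overlap, and Hist1h3b and Hist1h3d were at 0.34 and 0.25 with overlap.

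The H4 genes were higher as well, from 11.3 ± 1.496 CPM in WT31 to 18.4 ± 1.17 in WT31_P5IV over the 13 genes, without overlap. Their highest member, Hist1h4i (chr13:22040636-22041362), held 212, 184, 177, 217 and 245 counts in WT31 and 290, 240, 268, 268 and 224 in WT31_P5IV. The groups overlapped, and the log2 fold change was 0.41 (SE 0.10). Some weaker H4 genes differed more: Hist1h4c, Hist1h4d, Hist1h4b and Hist1h4n had log2 fold changes of 1.82, 1.78, 1.48 and 1.31, all without overlap. These met the filter in all WT31_P5IV libraries but not in all WT31 libraries. Others did not differ more: Hist1h4j was at 0.40 with overlap, and the untested Hist1h4k had means of 0.203 CPM in WT31 and 0.226 in WT31_P5IV. Hist1h4d held 9 to 12 counts in WT31 and 25 to 38 in WT31_P5IV, and 85.3% of its words are its own.

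**Figure D2:**
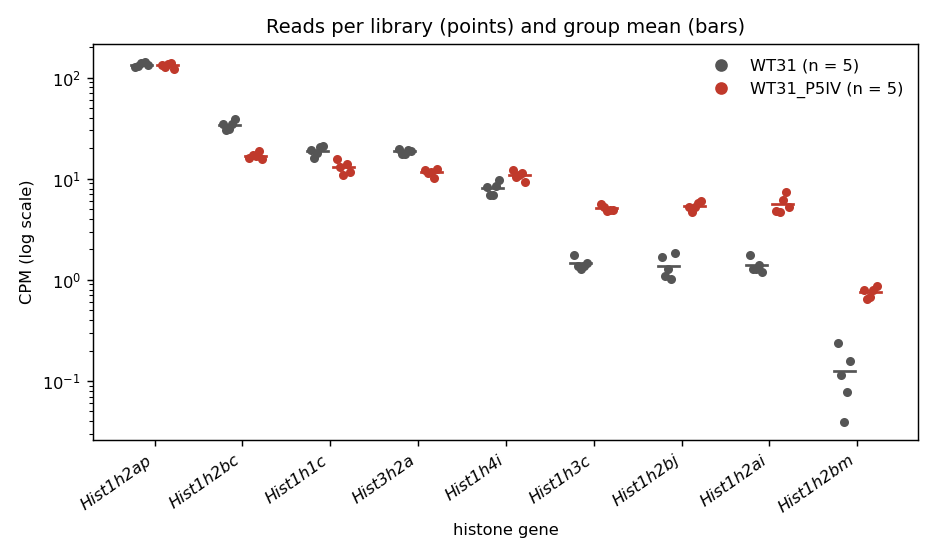
CPM per library on a log scale (y axis) for 9 histone genes (x axis), with grey points for the 5 WT31 and red points for the 5 WT31_P5IV libraries and bars for the group means. Hist1h2ap overlaps between the groups, with means of 134 and 132 CPM, Hist1h2bc, Hist1h1c and Hist3h2a are lower in WT31_P5IV, Hist1h4i is higher with overlap, and the 4 genes on the right are higher in every WT31_P5IV library.

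The Hist2 cluster on chromosome 3 has 10 members, of which 3 were tested. Hist2h2be, an H2B gene with a transcript of 2620 bases and no stem-loop in the annotation, held 536, 599, 561, 558 and 572 counts in WT31 and 593, 553, 582, 628 and 586 in WT31_P5IV. Its log2 fold change was 0.15 (SE 0.05), and it turned to -0.02 on the log2(TPM + 0.1) scale. Hist2h2aa2 held 67 to 92 counts in WT31 and 66 to 84 in WT31_P5IV. Hist2h3c2 held 31, 13, 16, 20 and 26 counts in WT31 and 11, 16, 8, 7 and 0 in WT31_P5IV, a log2 fold change of -1.24 (SE 0.44) that was no longer called without WT31 replicate 1. This value is uncertain, because Hist2h3b, Hist2h3c1 and Hist2h3c2 share words with each other and with the neighbouring gene models Gm20628 and Gm20634. The sum of the 3 histone genes was 13 to 50 counts in WT31 and 9 to 26 in WT31_P5IV, with overlap, and the sum with both models was 109 to 161 and 63 to 82. Hist2h3b was listed at 0 in all WT31 libraries and at 5, 3, 7, 15 and 9 in WT31_P5IV, of which replicate 2 lies at the limit of 3 counts. Every word of Hist2h3b is shared with Gm20628, so that its 0 in WT31 depends on how reads were assigned. Hist2h3c1 was listed at 0, 0, 34, 0 and 13 against 10, 3, 0, 0 and 0. Hist2h2ac held 1 to 2 counts in WT31 and 4 to 8 in WT31_P5IV, and Hist2h2ab 0 to 1 against 2 to 5. Hist2h2aa1 held 10 counts in 1 library of each group and 0 in the others, Hist2h2bb 0 to 2 in WT31 and 0 to 4 in WT31_P5IV, and Hist2h4 1 to 4 against 1 to 11. The Hist3 H2B gene Hist3h2ba had 1 count in all libraries together, and the pseudogene Hist3h2bb-ps had 1 to 4 per library. Hist4h4, the only Hist4 gene, held 3 to 8 counts in WT31 and 6 to 14 in WT31_P5IV.

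Of the 29 members without enough reads, Hist1h2aa, Hist1h2al, Hist1h2ba and Hist1h4m had no count in any library. Hist1h2aa and Hist1h2ba are known from the testis. Mean CPM was higher in WT31_P5IV for 22 of the other 25 and lower for 3, and in 6 of them (Hist1h2an, Hist1h2bb, Hist1h2bl, Hist2h2ab, Hist2h2ac and Hist2h3b) every WT31_P5IV library was above every WT31 library, which is not more than the 26.6% of all tested genes. None was lower in every library. Hist1h2bl, for example, held 2 to 4 counts in WT31 and 6 to 13 in WT31_P5IV.

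Within the Hist1 cluster on chromosome 13, the block between Hist1h2bl and Hist1h2bj held 24 members. The block from Hist1h4h to Hist1h2aa, further along the chromosome, held 31, and Hist1h2al lies apart from both. Over all tested genes 34.6% were called higher and 33.9% lower. Of the 16 tested genes of the first block, 13 were called higher and 0 lower, also at an unadjusted p under 0.05, with a median log2 fold change of 1.65. Of the 21 of the other block, 13 were called higher and 3 lower (Hist1h2bc, Hist1h1c and Hist1h2be), with a median of 0.89. These counts carry the limit of the filter given above. There were 15 head-to-head pairs of members whose starts lay 172 to 659 bases apart, 14 of them of an H2A with an H2B gene. In 7 pairs both genes were tested. Both were called higher in 3 pairs (Hist1h2ah with Hist1h2bk, Hist1h2ag with Hist1h2bj, Hist1h2bh with Hist1h3f), although the call of Hist1h2bh was lost in limma voom without TMM or filter and on the TPM scale, and no pair was called in opposite directions. The partners could differ in size: Hist1h2ae was at 1.36 (SE 0.14) and its partner Hist1h2bg, 175 bases away, at 0.25 (SE 0.22). Hist1h2ap faces Hist1h2br, which was at 1.10 (SE 0.29). Hist1h2bc faces Hist1h2ac, and these were at -1.01 (SE 0.07) and -0.18 (SE 0.18).

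By annotated 3′ end the calls were as follows, beside the 34.6% of all tested genes called higher and 33.9% called lower. Of the 41 tested members, 16 met the filter in all WT31_P5IV libraries but not in all WT31 libraries. Hist1h2bm, Hist1h2bk and Hist1h3a, which end at the stem-loop, are among them. For such genes the filter favoured a higher level in WT31_P5IV, and the counts by 3′ end and by length carry that limit. The 14 tested genes that ended at the stem-loop included 11 called higher and 0 lower, also at an unadjusted p under 0.05 (median 1.41), and all 4 tested genes annotated to the stop codon were called higher (median 2.00). Of the 17 that ran past the stem-loop, 8 were called higher and 4 lower (median 0.40), and of the 6 with another 3′ end, 4 were called higher and 1 lower. By length, 21 of the 26 tested genes with a longest transcript under 1000 bases were called higher and 0 lower, while of the 15 with 1000 bases or more 6 were called higher and 5 lower, both near the shares of all genes. Leaving out Hist1h2ap and Hist1h2ao, the stem-loop-ended genes summed to 310, 234, 260, 250 and 345 counts in WT31 and 675, 650, 680, 727 and 703 in WT31_P5IV, a CPM ratio of 2.62 without overlap. Their mean sums were 10.9 and 28.7 CPM. The pair left out holds most of the class, at 140 ± 6.37 CPM in WT31 and 146 ± 10.4 in WT31_P5IV, with overlap. The genes that ran past the stem-loop summed to 59.2 ± 5.20 CPM in WT31 and 55.3 ± 3.41 in WT31_P5IV, with overlap. Those with another 3′ end, which include Hist1h2bc, summed to 58.1 ± 3.63 CPM in WT31 and 45.9 ± 2.56 in WT31_P5IV, lower in every library although more of them were called higher than lower. Hist1h2ap ends 3 bases after the stem-loop and was level in CPM and lower in TPM, a scale on which the median of all genes moved by -0.17. Across the 41 genes, Spearman's rho of the log2 fold change was -0.63 with the longest transcript, -0.37 with the share of unique words and -0.27 with the mean level. These genes share sequence and are not independent, and the limit of the filter also bears on these correlations.

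**Figure D3:**
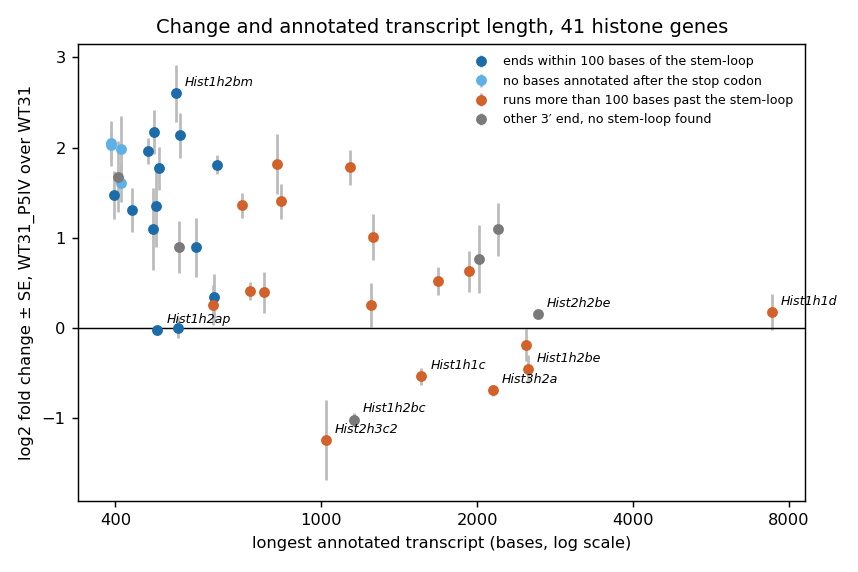
Log2 fold change ± SE of WT31_P5IV over WT31 (y axis) against the longest annotated transcript in bases (x axis, log scale) for the 41 tested histone genes, coloured by annotated 3′ end. The 5 genes called lower all have 1000 bases or more. Among the genes under 1000 bases only Hist1h2ap lies below 0, at -0.03. Of the 41 genes, 16 met the filter in all WT31_P5IV libraries but not in all WT31 libraries.

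Because reads are assigned by shared words, the families of near-identical genes were also summed. In all, 44 members shared at least 50% of their words with another gene. Hist1h2bq and Hist1h2br together held 21 to 34 counts in WT31 and 43 to 53 in WT31_P5IV, and Hist1h4m and Hist1h4n together 7 to 22 and 28 to 38, both without overlap. Hist2h2aa1 and Hist2h2aa2 together held 67 to 102 and 66 to 84. All their words are shared, and with the neighbouring gene models Gm20632, Gm20633 and Gm20634 added the sum was 12.6 ± 1.37 CPM in WT31 and 10.2 ± 0.366 in WT31_P5IV, lower in every library. With the copies summed before the fit, 25 features were called higher and 4 lower. Of the 15 tested members with at least 50% of their words unique, 7 were called higher and 4 lower, with a median of 0.25, not far from the 34.6% higher and 33.9% lower calls over all genes. Of the 26 with fewer, 20 were called higher and 1 lower, with a median of 1.38. The limit of the filter given above also bears on these counts. All members together stood at 271 ± 13.4 CPM in WT31 and 288 ± 16.8 in WT31_P5IV, with overlap. The log2 ratio of this sum was 0.08, and it turned to -0.26 over the members with at least 50% of their words unique. On the TPM scale the sum was 956 ± 25.2 in WT31 and 993 ± 63.0 in WT31_P5IV, also with overlap. Without Hist1h2ap and Hist1h2ao it was 132 ± 10.5 and 142 ± 6.89 CPM, with overlap, and on the TPM scale 229 ± 17.3 in WT31 and 332 ± 18.9 in WT31_P5IV, a ratio of 1.45 without overlap.

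Only Hist1h2be among the 5 members with several annotated transcripts had at least 20 counts in every library. This allowed a mean length over its annotated models to be read from the ratio of counts to TPM. These models are 2099 to 2506 bases long and none ends at the stem-loop. A transcript cut there would have no model, so the test cannot decide whether its share changed. The implied length was 2359 ± 22.1 bases in WT31 and 2349 ± 35.9 in WT31_P5IV. A two-sided exact permutation test over the 10 libraries gave p = 0.675 for the difference of -9.52 bases.

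The few other RNAs without a poly(A) tail that could be tested were higher in WT31_P5IV. Of a list of 12 such RNAs, 4 gene entries with 3 distinct sets of counts could be tested, and all 4 were called higher, beside 34.6% of all tested genes. Rpph1, the RNA of ribonuclease P, which trims tRNA precursors, held 51 to 64 counts in WT31 and 221 to 458 in WT31_P5IV (log2 fold change 2.67, SE 0.17, adjusted p = 3.66e-09 in edgeR). Rn7sk, which holds back the elongation factor P-TEFb, rose by 1.20 (SE 0.24, adjusted p = 0.000407), and Rn7s1 and Rn7s2, near-identical signal recognition particle RNAs listed with the same counts, by 1.28 (SE 0.29, adjusted p = 0.00118), with overlap, since WT31 replicate 1 held 31 counts and the WT31_P5IV libraries 27 to 46. Terc, Rny3 and Rnu7, the U7 RNA of histone processing, were listed at 0 throughout. Summed by annotated class, a choice made after the values had been seen, small nucleolar RNAs went from 498 to 557 counts in WT31 to 990 to 1161 in WT31_P5IV, and small nuclear RNAs from 120 to 173 to 219 to 262, both without overlap. The part of these RNAs, or of how RNA was selected, in the histone values was not tested.

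**Figure D4:**
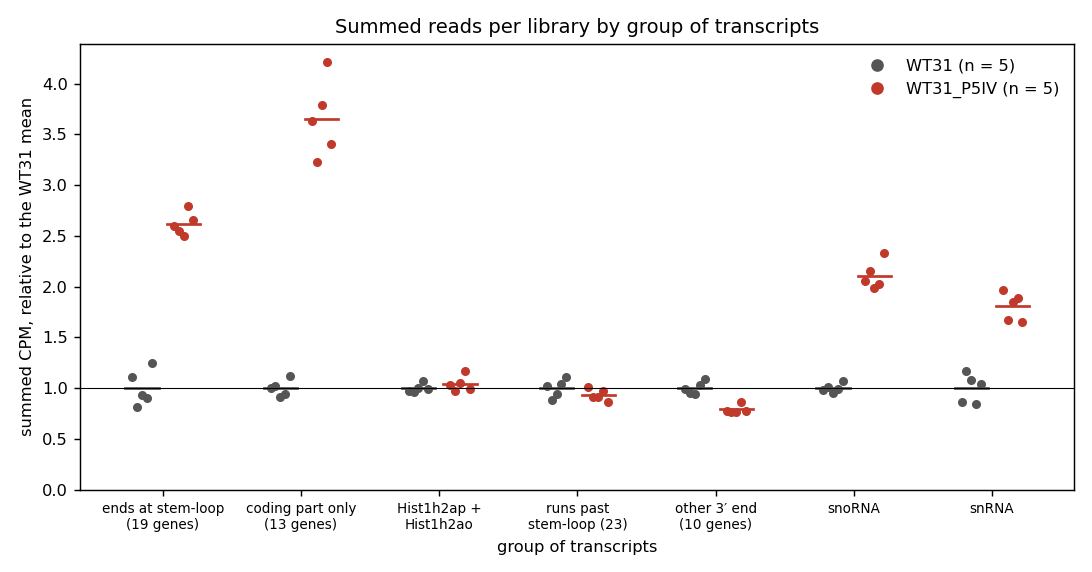
Summed CPM per library relative to the WT31 mean (y axis) for histone genes grouped by annotated 3′ end and for small nucleolar and small nuclear RNAs (x axis); grey points are the 5 WT31 and red points the 5 WT31_P5IV libraries, bars the means. Genes ending at the stem-loop, genes annotated to the stop codon and both classes of small RNA are higher in every WT31_P5IV library, while Hist1h2ap with Hist1h2ao and the genes running past the stem-loop overlap and the genes with another 3′ end are lower in every WT31_P5IV library.

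Genes around the histone pathway were taken from lists and tested in edgeR with adjustment over all tested genes, of which 34.6% were called higher and 33.9% lower. Of 11 histone variants listed as replication-independent, 6 were called higher and 3 lower. H1fx, a linker histone variant, rose most (log2 fold change 0.71, SE 0.11, adjusted p = 3.24e-05), and H2afy, which encodes macroH2A, fell most (-0.23, SE 0.04, adjusted p = 6.90e-05). H2afz, which encodes H2A.Z, rose by 0.17 (SE 0.04, adjusted p = 0.000693) but was at -0.01 on the TPM scale, and H2afx, the variant phosphorylated at DNA breaks, was at 0.05 (SE 0.08, adjusted p = 0.645).

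Of 21 matched genes for histone transcription and 3′ processing, 8 were called higher and 5 lower, near or below the shares of all genes, and none of them by a log2 fold change of 1 or more. Slbp, whose protein binds the stem-loop, held 1344 to 1535 counts in WT31 and 1204 to 1372 in WT31_P5IV, and its log2 fold change was -0.07 (SE 0.04, adjusted p = 0.124). Npat, the coactivator of histone genes in S phase, was at -0.16 (SE 0.08, adjusted p = 0.0738), and Casp8ap2, needed for histone transcription at histone locus bodies, at -0.02 (SE 0.10, adjusted p = 0.890). The lower calls were Ncbp2, a subunit of the cap binding complex (-0.81, SE 0.04, adjusted p = 3.35e-10), the cleavage factors Cstf2, Cpsf2 and Cpsf3, and Eri1, an exonuclease that trims histone mRNA ends, of which the last 4 lay between -0.41 and -0.29. Upf1, a helicase of histone mRNA decay, rose most (0.42, SE 0.03, adjusted p = 4.37e-08). On the TPM scale, on which the median of all genes moved by -0.17, the list gave 3 higher and 8 lower calls.

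Of 22 histone chaperone and assembly genes, 6 were called higher and 12 lower, and 2 and 14 on the TPM scale. Tonsl, a reader of new histone H4, rose most (0.47, SE 0.06, adjusted p = 4.75e-06), and Nap1l1, a chaperone of H2A and H2B, fell most (-0.38, SE 0.04, adjusted p = 9.63e-07). Of 41 DNA replication genes, 26 were called higher and 7 lower, but 15 and 13 on the TPM scale. Pold1, the catalytic subunit of DNA polymerase delta, rose by 0.75 (SE 0.05, adjusted p = 1.78e-08), and Mcm4, a subunit of the replicative helicase, fell by 0.58 (SE 0.03, adjusted p = 5.50e-10). Of 20 genes of G2 and mitosis, 11 were called higher and 0 lower by edgeR and by DESeq2, with 0 lower at an unadjusted p under 0.05 in edgeR, but 6 and 5 on the TPM scale. Mki67, the proliferation marker Ki-67, rose most (0.80, SE 0.11, adjusted p = 1.29e-05). No gene of these 5 lists reached a log2 fold change of 1, and whether proliferation has a part in the histone values was not tested.

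**Figure D5:**
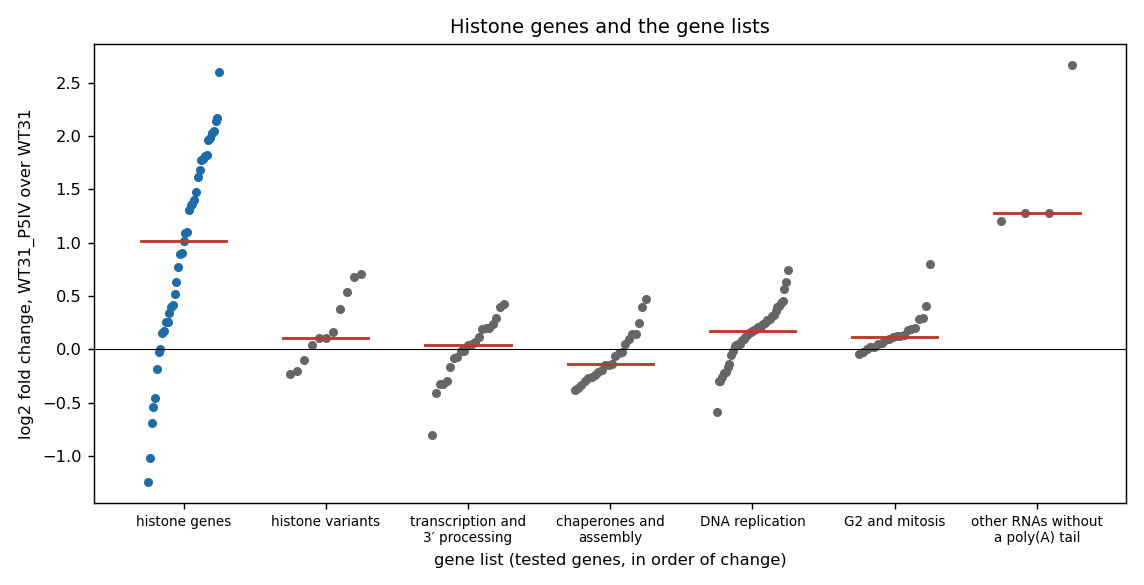
Log2 fold change of WT31_P5IV over WT31 (y axis) for the tested histone genes (blue) and the tested genes of 6 lists (grey, x axis), each in order of change, with red lines at the medians. The histone genes spread from -1.24 to 2.60 around a median of 1.01, whereas genes of the first 5 lists stay between -0.81 and 0.80.

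The libraries were checked against cell type markers. All 7 melanocyte markers were tested, of which Dct, Tyr and Pmel were called higher in WT31_P5IV, Tyrp1 and Sox10 lower, and Mitf and Mlana neither. Mitf, the lowest of them, still held 7789 to 10308 counts. The summed melanocyte markers ranged from 17046 to 18443 CPM in WT31 and from 22228 to 25729 in WT31_P5IV. Leukocyte and macrophage markers summed to 0.833 to 2.18 CPM in WT31 and 3.50 to 5.08 in WT31_P5IV, of which Cd68, a lysosomal protein gene, held 20 to 50 and 80 to 117 counts, while Ptprc and Adgre1 had 0 to 2. The defining hepatocyte gene Alb held 0 in WT31 and 0 to 9 in WT31_P5IV, the 6 hepatocyte markers summed to at most 1.30 CPM, and the 5 endothelial markers to at most 0.379 CPM, with Cdh5 and Lyve1 at 0. The 5 stellate cell and fibroblast markers summed to 1.77 to 2.51 CPM in WT31 and 2.78 to 3.53 in WT31_P5IV. Their part in the histone values was not tested.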

How the data were processed

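RNA-seq of 5 WT31 and 5 WT31_P5IV libraries was used. According to the submitters' processing notes and methods, the authors trimmed reads with Trim Galore 0.6.4 and pseudoaligned them with kallisto (the version is given in more than one way) to GRCm38 transcripts. The deposited values are kallisto's estimated counts and TPM, both summed per gene by the authors. The annotation release, the strand setting and the RNA selection are not given in the sources used here. Symbols, positions and transcripts came from GENCODE M21, matched without identifier versions (55144 of 55385). For all 70 members the version also matched.

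Estimated counts were rounded, filtered by filterByExpr, scaled by TMM and compared with edgeR 4.0.16 (R 4.3.3), whose quasi-likelihood p-values were adjusted by Benjamini-Hochberg across the 13620 genes kept. Alternatives used limma 3.58.1 and DESeq2 1.42.0, other filters and scalings, and each library left out. On simulated data with 200 of 13620 genes changed by a log2 fold change of 1, 92.5% were found with 12 false calls. Libraries held 24255389 to 25750639 estimated counts, and no pair of libraries agreed within sampling noise. P-values measure the spread between these libraries, which may be partly technical.

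The members and gene lists were chosen with earlier results of these data known. The members were selected by symbol in a family proposed for its values in this contrast. Named members are the highest of each type by TPM, the 6 members with the greatest increase and the 6 with the greatest decrease in which CPM of the groups did not overlap (only 3 decreases were of this kind), all members of Hist2, Hist3 and Hist4, and members whose implied length differed. Other members were named after their values were seen. Named list genes are those past an absolute log2 fold change of 1 or the largest increase and decrease of each list, with Slbp, Npat, Casp8ap2, H2afx and H2afz, and others chosen after their values were seen. Words of 31 bases were compared between all M21 transcripts. Implied length was fitted on single-transcript genes of 1000 to 8000 bases with at least 200 counts. Python 3.11.15, pandas 2.3.3, scipy 1.17.1 and numpy 2.4.6 were used.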

Additional observations from a re-analysis of the deposited data

Results flagged for a closer look

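Within groups of 5, a library whose gap to its nearest neighbour exceeded Dixon's 95% critical value was looked for in 70 groups of values, of which chance alone would mark about 1 in 20. It was found in 5. Hist2h2aa2 stood at 3.54 CPM in WT31_P5IV replicate 4 against 2.77 to 2.97 in the other 4 libraries. Upf1 stood at 169 CPM in WT31_P5IV replicate 3 against 161 to 163, and Npat at 48.1 CPM in the same library against 43.7 to 44.3. Rn7s1 and Rn7s2, which are listed with the same counts, each stood at 1.21 CPM in WT31 replicate 1 against 0.392 to 0.530 in the other 4.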

How the results depend on the processing

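The 27 higher and 5 lower calls among histone genes became 24 to 27 and 4 to 5 when a library was left out (Hist1h2ab, Hist1h1e, Hist1h2ad, Hist1h2ao or Hist2h3c2 lost theirs), and the median log2 fold change 0.85 to 1.07. Hist1h2bh, Hist1h2ad, Hist1h1e, Hist1h2ab and Hist2h2be lost their calls in limma voom without TMM or filter and on both TPM scales, Hist1h2ao in DESeq2 and on both TPM scales, and Hist1h2ad, Hist1h1e and Hist2h2be without a filter. At least 10 counts in every library left 11 higher calls and a median of 0.26, since fewer genes were tested, and log2(TPM + 1) gave a median of 0.72. The summed histone CPM, at 0.08 (log2), was 0.18 without the member of highest CPM, -0.26 over members with at least 50% unique words, and 0.05 to 0.10 with a library left out. Hist2h2be turned to -0.0209 with log2(TPM + 0.1) and -0.0195 with log2(TPM + 1), and H2afz to -0.00840 and -0.00839. On both TPM scales transcription and processing gave 3 higher and 8 lower calls, chaperones 2 higher, DNA replication 15 higher and 13 lower, and G2 and mitosis 6 higher and 5 lower. Without TMM or filter, limma voom gave 4 higher processing, 3 higher chaperone, and 7 higher and 1 lower mitosis calls. No filter beyond 1 count gave 3 higher chaperone and 7 higher mitosis calls. The cause was not tested. Leaving out a library gave 7 to 8 and 5 to 7 processing calls, 5 to 6 and 12 chaperone, 23 to 25 and 7 to 8 replication, 8 to 11 and 0 mitosis, and 5 to 6 and 3 variant calls, higher and lower respectively, and 4 and 0 for the RNAs without a tail. The Hist1h2be length difference ran from -18.7 to 5.37 bases. At least 50 counts left no gene for it. Npat and Slbp were called lower in 7 and 5 of their 19 alternatives. The 31-base words limit all near-identical genes. Libraries sharing a replicate number correlated by -0.10 to 0.18, so the numbers do not pair them. With the replicate number as a block, 27 and 5 histone calls and 6 lower processing calls were made.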
